A study of Mus musculus with 8 samples.

Results

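The 10 genes described here encode the enzymes that insert double bonds into fatty acids and lengthen their chains: the desaturases Scd1, Scd2, Fads1, Fads2 and Fads3 and the elongases Elovl1, Elovl2, Elovl5, Elovl6 and Elovl7. They were taken by name, as a family chosen with earlier results of these data known, from 19321 genes with a named probe, and each is represented by its probe with the highest mean deposited value over the arrays. All 10 passed the filter on dim genes, as did 16799 genes in all. Liver RNA was hybridized to 8 arrays, each in a single colour and of a single tissue sample. Every mouse had received the carcinogen DMBA, a polycyclic aromatic hydrocarbon, as a neonate aged 4 to 5 days, and was then fed for 30 weeks. Normal diet liver was measured on 2 arrays (mice 117 and 120). Non-tumour and tumour tissue of high fat diet-fed livers was measured on 3 arrays each (mice 117, 186 and 1), and same-numbered tissues came from 1 liver. The normal diet mouse 117 was taken as another animal because the diets differ. The normal diet mice carried DMBA too, so no group shows a liver without the carcinogen. Each non-tumour sample came from a liver that also gave a tumour sample, and no tumour of a normal diet liver was measured. The comparison of non-tumour with normal diet liver is called the comparison between diets below. In it, diet and carrying a tumour cannot be told apart. The gain values in the scanner headers also differ between the normal diet arrays and all high fat arrays. They cannot be told apart from diet in any comparison with normal diet liver. Strain and sex are not stated in the labels.

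Stearoyl-CoA desaturases place the first double bond into saturated acyl-CoA, giving the monounsaturated fats that liver stores and exports. The Fads desaturases and the elongases Elovl2 and Elovl5 build long polyunsaturated fatty acids from the essential fatty acids of the diet. Elovl6 lengthens palmitate, and Elovl1 and Elovl7 act on longer or other saturated chains. In liver many of these genes are controlled by SREBP, LXR and PPAR transcription factors and respond to insulin and to dietary polyunsaturated fat.

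Levels are the authors' normalized intensities, a linear scale on which the median listed probe of each array is 25, given as mean ± SD. Probe brightness differs between probes, so a level is set only against the same gene's level on other arrays. Differences are on the log2 scale after background correction, an added offset and quantile normalization, given ± SE with the Benjamini-Hochberg adjusted p from limma over all genes tested. A gene was called at an adjusted p below 0.05, and the offset makes the log2 differences of dim genes smaller than the ratio of their deposited levels. The 3 comparisons share arrays and are not independent. The number of arrays limits the precision, most of all for the 2 normal diet livers. The albumin gene Alb, the hepatocyte's defining product, was listed at 44979.7 to 56457.9 on all 8 arrays. The 7 hepatocyte markers on the array, Alb among them, summed to 210873 to 218476 in normal diet liver. The sum was 155700 to 166144 in non-tumour tissue and 179306 to 204901 in tumours. Between tumour and non-tumour tissue 3 of the 7 were called higher (Apoa1, Serpina1c and Fgb) and 0 lower. The median difference of the 7 was 0.47. Between diets 0 were called higher and 1 lower. The part of hepatocytes in the differences of the genes described here was not tested. In bulk tissue, fewer cells of a type and less RNA per cell cannot be told apart.

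Between tumour and non-tumour tissue 8 of the 10 genes were called, against 25.4% of all genes tested. Scd2, Fads1, Fads2, Fads3, Elovl1 and Elovl7 were higher in tumours (12.0% of all genes were called higher), and Scd1 and Elovl6 were lower (13.4% called lower). The median difference of the 10 genes was 0.45, against -0.01 for all genes tested. Non-tumour high fat liver differed from normal diet liver in 4 of the 10 genes, all higher: Scd1, Fads2, Elovl1 and Elovl5. In that comparison 3.85% of all genes were called, 1.81% higher and 2.04% lower, and the medians were 0.53 for the 10 genes and -0.00 for all. Between tumours and normal diet liver 9 of the 10 genes were called, all higher, against 27.8% of all genes called, 12.9% higher and 15.0% lower; Elovl6 was not called.

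**Figure D1:**
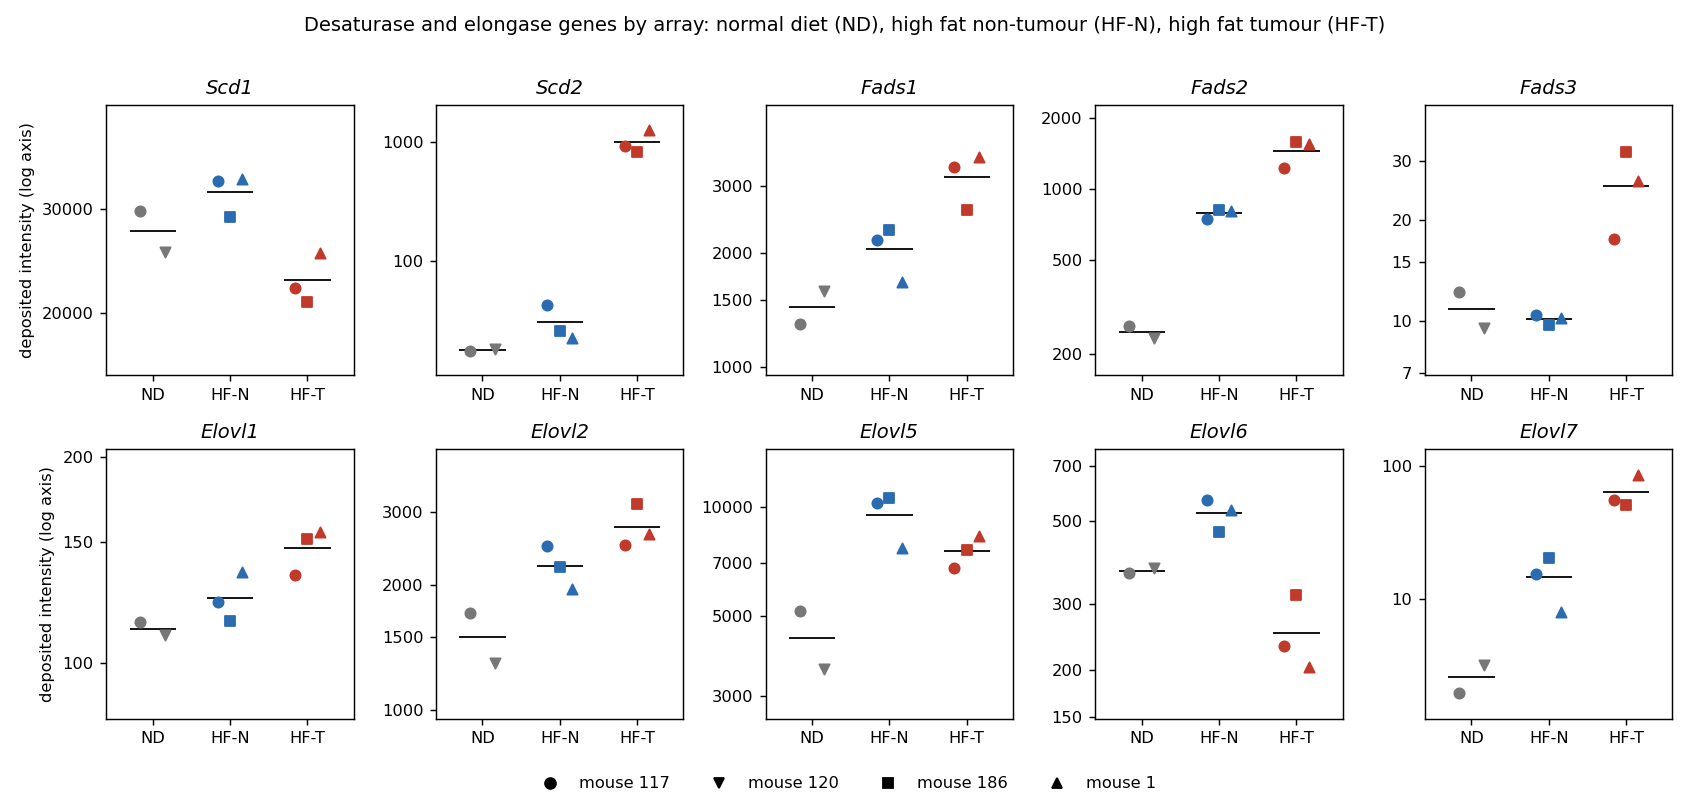
Deposited intensity of each gene on each array, on log axes, for normal diet (ND), high fat non-tumour (HF-N) and high fat tumour (HF-T) tissue; marker shapes give the mouse number and horizontal lines the group means. Scd2 stands at 816.4 to 1258.2 in tumours and at 42.7 or below elsewhere, whereas Elovl6 is lower in tumours than in non-tumour tissue.

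Scd2, a stearoyl-CoA desaturase known mainly from brain and adipose tissue and from neonatal liver, showed the largest difference between tumour and non-tumour tissue among the 10 genes. It was listed at 17.6 and 18.3 in normal diet liver. In non-tumour tissue it was 42.7 in mouse 117, 25.6 in mouse 186 and 22.6 in mouse 1. In tumours it was 922.4, 816.4 and 1258.2 in the same order. Every tumour array lay far above every other array, and the non-tumour arrays lay just above the normal diet ones. The group means were 17.9 ± 0.495 (SD, n = 2), 30.3 ± 10.8 (n = 3) and 999 ± 231 (n = 3). Scd2 rose in tumours against non-tumour tissue by 4.00 ± 0.13 log2 units (adjusted p = 5.51e-05), a ratio of mean levels of 33.0, and ranked number 6 by size among the 16799 genes tested. Within each liver the tumour level was 21.6, 31.9 and 55.7 times the non-tumour level (mice 117, 186 and 1). Against normal diet liver it rose by 4.26 ± 0.15 (adjusted p = 5.14e-05). The 0.27 ± 0.15 between non-tumour and normal diet liver missed the threshold (adjusted p = 0.384).

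Because Scd2 is also an adipose transcript, the adipocyte markers are given beside it. Of the 7 adipocyte markers on the array, the defining adipokine gene Adipoq was listed on 0 arrays and Lep on 1. The summed level of the list was 34653 to 39240 in normal diet liver, 28804.5 to 30773.4 in non-tumour tissue and 4043.4 to 8994.4 in tumours. Most of this sum came from Car3 and Pck1, which liver itself expresses. In tumour 1, where the sum was lowest, they were at 2248.4 and 753.7 and Fabp4 was at 1023.9. Fabp4, the fatty acid binding protein of adipocytes and macrophages, was at 103.4 and 137.6 in normal diet liver, 413.4, 432.1 and 404.9 in non-tumour tissue and 601.0, 394.1 and 1023.9 in tumours (mice 117, 186 and 1). Its difference between tumour and non-tumour tissue was 0.75 ± 0.29 (adjusted p = 0.108, unadjusted p = 0.0367), and against normal diet liver tumours were higher by 2.31 ± 0.32 (adjusted p = 0.00338). The lipid droplet gene Plin1 was at 9.1 to 14.6 on all arrays. Of the 8 liver tumour markers 6 were higher in tumours than in non-tumour tissue, and H19 and Igf2 were not called. Their summed level was 64.4 to 74.2 in normal diet liver, 1476.5 to 2016.5 in non-tumour tissue and 10764 to 18583 in tumours. The sum in non-tumour tissue was nearly all Ly6d (1421.4 to 1924), the 1 marker of this list that was called between diets. The macrophage markers summed to 681 to 982 in non-tumour tissue and 329 to 481 in tumours, and of 8 tested 0 were called higher and 2 lower. The markers moved unequally: Clec4f went from 283 ± 98.6 to 71.3 ± 24.9, and Cd68 from 110 ± 5.03 to 99.5 ± 20.8 (n = 3 each). The pancreas and gut list summed to 132 to 152 in non-tumour and 373 to 615 in tumour tissue, and its 1 called gene of 3 tested was Cela1 (92.5 to 113.4 and 334 to 556). The muscle and mesothelial list summed to 165 to 218 and 499 to 633, and its 1 called gene of 8 was Msln (127.6 to 147.4 and 453.5 to 599.7). The medians of these lists were 0.12 and 0.01. Of 7 endothelial markers tested 2 were called higher and 0 lower, while their sum was 713 to 787 in non-tumour and 516 to 723 in tumour tissue. Of 8 stellate cell and fibroblast markers 1 was called higher and 1 lower. The part of these cell types in the differences of the 10 genes was not tested.

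By the root mean square distance of mean-centred log2 values over the 8 arrays, the patterns most like that of Scd2 were those of Afp (0.221), the fetal liver and tumour marker alpha-fetoprotein, Gpc3 (0.277), a cell-surface proteoglycan of liver tumours, and Cdkn2b (0.323), a cell cycle inhibitor. The values of Scd2 itself spanned 4.5 log2 units. Afp was at 593.6 to 1311.5 in tumours and at 7.7 or below on the other arrays. Afp was chosen here as the tested gene nearest to Scd2, so a shared step between tumour and all other tissue follows from that choice.

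Scd1, the main stearoyl-CoA desaturase of adult liver, went the other way in tumours. Its deposited level was 29778.5 and 25345.2 in normal diet liver. It was 33381.9, 29095.0 and 33727.7 in non-tumour tissue and 22079.7, 20934.4 and 25243.4 in tumours (mice 117, 186 and 1). All tumour arrays lay below all non-tumour arrays, whereas the ranges of normal diet and non-tumour tissue overlapped on the deposited scale. The means were 27562 ± 3135 (n = 2), 32068 ± 2581 (n = 3) and 22753 ± 2232 (n = 3). Scd1 fell by 0.29 ± 0.05 log2 units in tumours against non-tumour tissue (adjusted p = 0.00527), with differences of -0.37, -0.24 and -0.27 within mice 117, 186 and 1. It rose by 0.47 ± 0.05 in non-tumour against normal diet liver (adjusted p = 0.00892).

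The Scd1 probe lay in the range where the scanner readings change form. On each array, all readings below a point between 26488 and 29522 were fractional and all above it were whole numbers, and the header gives several scanner gains. Scd1 read as a whole number on the 3 non-tumour arrays and on tumour 1, and as a fraction on the other 4. The part of this change of reading in the Scd1 differences was not tested. In mouse 1, where both tissues gave whole numbers, the deposited level of the tumour was 0.748 times that of the non-tumour tissue. The tumour call was lost with blank-subtracted signal (-0.29, adjusted p = 0.0597). The diet call was lost with blank-subtracted signal (0.47, adjusted p = 0.0645), with the deposited values (0.22, adjusted p = 0.47) and without normal diet 120 (0.43, adjusted p = 0.0732). The Scd1 difference between tumours and normal diet liver, 0.18 ± 0.05 (adjusted p = 0.0447), turned to -0.28 with the deposited values. Leaving out any array but tumour 117 also ended that call, with adjusted p from 0.0708 without non-tumour 1 to 0.235 without normal diet 120.

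Relative to normal diet liver, the log2 ratio of Scd2 to Scd1 within an array was 0.97, 0.43 and 0.04 in non-tumour tissue and 6.0, 5.9 and 6.3 in tumours (mice 117, 186 and 1). This shows that the genes changed unequally. The genes nearest to the Scd1 pattern were Acadl (0.0535), a mitochondrial long-chain acyl-CoA dehydrogenase, Tenm3 (0.0572) and Lamp1 (0.0595), a lysosomal membrane protein, where Scd1 itself spanned 0.521 log2 units. Scd1 and Scd2 are neighbours of Scd3 and Scd4 on chromosome 19. Scd4 was at 38.9 to 84.3 over the 8 arrays and was not called in any comparison (tumour against non-tumour -0.15 ± 0.12, adjusted p = 0.426). Scd3 was listed on 2 arrays, at 1.7 and 2.0, close to the dimmest values listed. Cross-hybridization between these closely related transcripts was not tested.

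Fads2, the front-end desaturase that takes the first step from the essential fatty acids, rose in both steps from normal diet to tumour tissue. It was at 262.5 and 233.3 in normal diet liver. In non-tumour tissue it was 750.5, 819.0 and 804.6, and in tumours 1225.5, 1582.6 and 1548.1 (mice 117, 186 and 1). No 2 groups overlapped, and the spread within each group was small beside the gaps between groups. The means were 248 ± 20.6 (n = 2), 791 ± 36.1 (n = 3) and 1452 ± 197 (n = 3). Non-tumour high fat liver exceeded normal diet liver by 1.60 ± 0.11 log2 units (adjusted p = 0.00254, ratio of mean levels 3.19). Tumours exceeded non-tumour tissue by 1.12 ± 0.10 (adjusted p = 0.000895), with differences of 0.96, 1.23 and 1.18 within the 3 livers.

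Fads2 and Elovl5, described further on, showed the largest fitted differences between diets among the 10 genes that were called, and the sequence upstream of each gene's start is shown for both. The order depends on the scale: the ratio of mean deposited levels was 5.63 for Elovl7, a dim gene not called between diets, against 3.19 for Fads2 and 2.18 for Elovl5. The RefSeq promoter table of GRCm38.p6 held 7 of the 10 genes, and Scd1, Scd2 and Fads1 were not among them. The 250 bases before the start site were searched on both strands for 5 motifs, and the same windows of all 32851 promoters of the table give their background. The CCAAT box was held by 33.8% of these windows and the GC box, searched as GGGCGG, by 32.7%. The E-box, searched as CACGTG, was held by 6.02% and the TATA box, searched as TATAAA, by 12.4%. A sterol regulatory element, searched as TCACCCCAC, was held by 0.496%. Matches stand in capitals, and each sequence runs 5′ to 3′ on the gene's strand. Fads2 lies at chr19:10101504-10101753 on the minus strand and Elovl5 at chr9:77917115-77917364 on the plus strand.
Fads2: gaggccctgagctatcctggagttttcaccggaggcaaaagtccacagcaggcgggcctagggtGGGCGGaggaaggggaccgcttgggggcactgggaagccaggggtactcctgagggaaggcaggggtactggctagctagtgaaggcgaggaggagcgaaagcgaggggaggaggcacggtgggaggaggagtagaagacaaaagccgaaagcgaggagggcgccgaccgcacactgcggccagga
Elovl5: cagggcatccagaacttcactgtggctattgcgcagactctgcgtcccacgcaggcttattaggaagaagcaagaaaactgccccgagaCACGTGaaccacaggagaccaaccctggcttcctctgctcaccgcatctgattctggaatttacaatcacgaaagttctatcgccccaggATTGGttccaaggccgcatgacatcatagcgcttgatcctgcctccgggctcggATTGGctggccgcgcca
The Fads2 window held a GC box ending 181 bases before the start. The Elovl5 window held an E-box 156 bases before the start and 2 CCAAT boxes on the reverse strand, read as ATTGG, at 67 and 13 bases. Such matches are letters only and do not show that a factor binds.

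Fads1, the desaturase that acts after Fads2 and gives arachidonic acid, was at 1302.4 and 1583.0 in normal diet liver. It was 2165.1, 2298.5 and 1673.5 in non-tumour tissue and 3360.4, 2587.7 and 3580.2 in tumours. All tumour arrays lay above all non-tumour arrays, and mouse 1 held both the lowest non-tumour and the highest tumour level. Fads1 rose in tumours by 0.90 ± 0.17 (adjusted p = 0.0109), and by 0.88, 0.52 and 1.29 within mice 117, 186 and 1. The 0.72 ± 0.19 between non-tumour and normal diet liver missed the threshold (adjusted p = 0.098) but passed it without non-tumour 1 (0.90, adjusted p = 0.0358) and when arrays were scaled to the same median (0.91, adjusted p = 0.047). Against normal diet liver, tumours were higher by 1.61 ± 0.19 (adjusted p = 0.00193).

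Fads3, the third gene of this cluster on chromosome 19, where Fads3, Fads2 and Fads1 lie side by side, was dim on every array. It was at 12.2 and 9.5 in normal diet liver and at 10.4, 9.7 and 10.2 in non-tumour tissue, with overlapping ranges. In tumours it was 17.6, 31.9 and 26.1, above every other array. The rise in tumours was 0.34 ± 0.05 log2 units (adjusted p = 0.00554), while the ratio of mean levels was 2.50. The log2 value was 1.20 with the deposited values and a pseudocount of 1, and 1.28 with blank-subtracted signal, since no offset of 50 is added there. Between diets the difference was -0.01 ± 0.06 (adjusted p = 0.968). The call against normal diet liver (0.33 ± 0.06, adjusted p = 0.00847) was lost without normal diet 120 (0.31, adjusted p = 0.062).

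**Figure D2:**
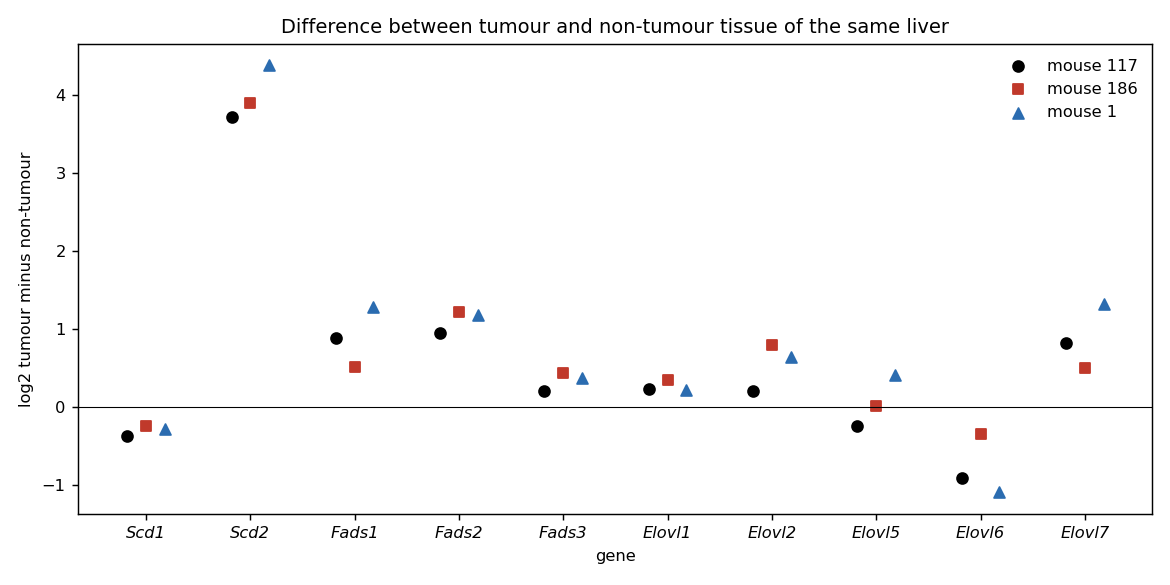
Difference between tumour and non-tumour tissue of the same liver, in log2 units, for each gene and each of mice 117, 186 and 1. Scd2 is at 3.72 to 4.38 in the 3 livers, Scd1 and Elovl6 are below 0 in all 3, and Elovl5 lies on both sides of 0.

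Elovl5, an elongase of polyunsaturated and monounsaturated chains, was higher in both high fat groups than in normal diet liver. It did not differ detectably between tissues of the same liver. It was at 5146.5 and 3568.5 in normal diet liver. It was 10275.0, 10570.8 and 7696.7 in non-tumour tissue and 6791.6, 7585.4 and 8329.3 in tumours (mice 117, 186 and 1). Both high fat groups lay above normal diet liver, and they overlapped each other. Elovl5 rose by 1.36 ± 0.21 log2 units in non-tumour against normal diet liver (adjusted p = 0.0247, ratio of mean levels 2.18) and by 1.42 ± 0.21 in tumours against normal diet liver (adjusted p = 0.00409). The difference between tumour and non-tumour tissue was 0.06 ± 0.19 (95% interval -0.38 to 0.51, adjusted p = 0.851) and took both signs within the livers (-0.24, 0.01 and 0.42). It was -0.28 when arrays were scaled to the same median, -0.32 with the deposited values, -0.09 without non-tumour 1 and -0.002 without tumour 186. The diet call was lost without normal diet 117 (1.62, adjusted p = 0.0571), normal diet 120 (1.09, adjusted p = 0.131), non-tumour 117 (1.29, adjusted p = 0.0757) or non-tumour 186 (1.26, adjusted p = 0.0729), and with the compared groups alone (adjusted p = 0.0517).

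Elovl2, the elongase that leads to the longest polyunsaturated chains such as docosahexaenoic acid, was at 1713.9 and 1298.6 in normal diet liver. It was 2491.8, 2220.1 and 1960.8 in non-tumour tissue and 2503.0, 3143.7 and 2662.9 in tumours. The groups did not overlap, though the highest non-tumour and the lowest tumour array, both of mouse 117, were almost equal. Tumours were higher than normal diet liver by 1.36 ± 0.20 log2 units (adjusted p = 0.00375). Neither single step passed: the difference was 0.55 ± 0.17 between tumour and non-tumour tissue (95% interval 0.13 to 0.97, adjusted p = 0.064) and 0.81 ± 0.20 between diets (adjusted p = 0.0795). An offset of 16 brought the first past the threshold (0.56, adjusted p = 0.0439), and scaling to the same median the second (0.98, adjusted p = 0.0266).

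Elovl6, which extends palmitate to stearate, was the elongase among the 10 genes that fell in tumours. It was at 362.6 and 373.0 in normal diet liver, 567.7, 467.6 and 534.9 in non-tumour tissue, and 232.5, 316.7 and 203.5 in tumours (mice 117, 186 and 1). On the deposited scale the 3 groups did not overlap, with non-tumour tissue highest and tumours lowest. On the normalized log2 scale used for the tests, tumour 186 (8.81) lay above both normal diet arrays (8.61 and 8.69). The means were 368 ± 7.35 (n = 2), 523 ± 51.0 (n = 3) and 251 ± 58.8 (n = 3). Elovl6 fell by 0.78 ± 0.16 log2 units in tumours against non-tumour tissue (adjusted p = 0.0151), and by 0.90, 0.34 and 1.09 within the livers of mice 117, 186 and 1. Without non-tumour 117 (-0.72, adjusted p = 0.0528) or with the mouse fitted as a block (adjusted p = 0.0593) this call was lost. The diet difference of 0.60 ± 0.18 was not called (adjusted p = 0.135) but passed with same-median scaling (0.84, adjusted p = 0.0283), with the compared groups alone (adjusted p = 0.031) and without tumour 186 (adjusted p = 0.0472). Tumours and normal diet liver differed by -0.18 ± 0.18 (adjusted p = 0.506), a difference called with the deposited values and a pseudocount of 10 (-0.56, adjusted p = 0.0358). The nearest patterns were those of Tpm2 (0.0852), a tropomyosin, Cebpb (0.0949), a bZIP transcription factor, and Slc25a20 (0.102), the mitochondrial carnitine-acylcarnitine carrier, where Elovl6 itself spanned 1.22 log2 units.

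Elovl7, an elongase of saturated chains, was near the dimmest listed values in normal diet liver, at 2.0 and 3.2. It was 15.4, 20.4 and 8.1 in non-tumour tissue and 56.1, 50.9 and 86.2 in tumours. The groups did not overlap, and mouse 1 had both the lowest non-tumour and the highest tumour level. Elovl7 rose in tumours against non-tumour tissue by 0.88 ± 0.14 log2 units (adjusted p = 0.0053), where the ratio of mean levels was 4.40. With mouse as a block the same difference missed the threshold (adjusted p = 0.0519). With the deposited values and a pseudocount of 1 the tumour difference was 2.11 (adjusted p = 0.000926). Against normal diet liver tumours were higher by 1.21 ± 0.15 (adjusted p = 0.00242). The diet difference of 0.33 ± 0.15 was not called (adjusted p = 0.294), whereas blank-subtracted signal gave 2.58 (adjusted p = 0.0404) and the deposited values with a pseudocount of 1 gave 2.05 (adjusted p = 0.0101).

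Elovl1, an elongase of very long saturated chains, differed least between tumour and non-tumour tissue among the called genes. It was at 114.7 and 109.7 in normal diet liver, 122.6, 115.3 and 135.8 in non-tumour tissue and 134.5, 151.5 and 155.4 in tumours. On the deposited scale the highest non-tumour array lay above the lowest tumour array. The fit gave a rise of 0.27 ± 0.03 log2 units in tumours against non-tumour tissue (adjusted p = 0.00243), which was lost with the deposited values (0.24, adjusted p = 0.246). It gave a rise of 0.20 ± 0.04 in non-tumour against normal diet liver (adjusted p = 0.0424), which kept its call under 4 of 18 alternatives. Leaving out any array but tumour 186 ended that diet call, with adjusted p from 0.0576 without tumour 1 to 0.21 without normal diet 117. Against normal diet liver tumours were higher by 0.47 ± 0.04 (adjusted p = 0.000549), a call lost with the deposited values and a pseudocount of 1 (0.39, adjusted p = 0.078). A second Elovl1 probe, at 9.4 to 15.3 on the 8 arrays, differed by 0.03 between tumour and non-tumour tissue and by -0.08 between diets. With the mean of both probes the tumour difference was 0.15 (adjusted p = 0.00368) and the diet difference 0.06 (adjusted p = 0.242).

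**Figure D3:**
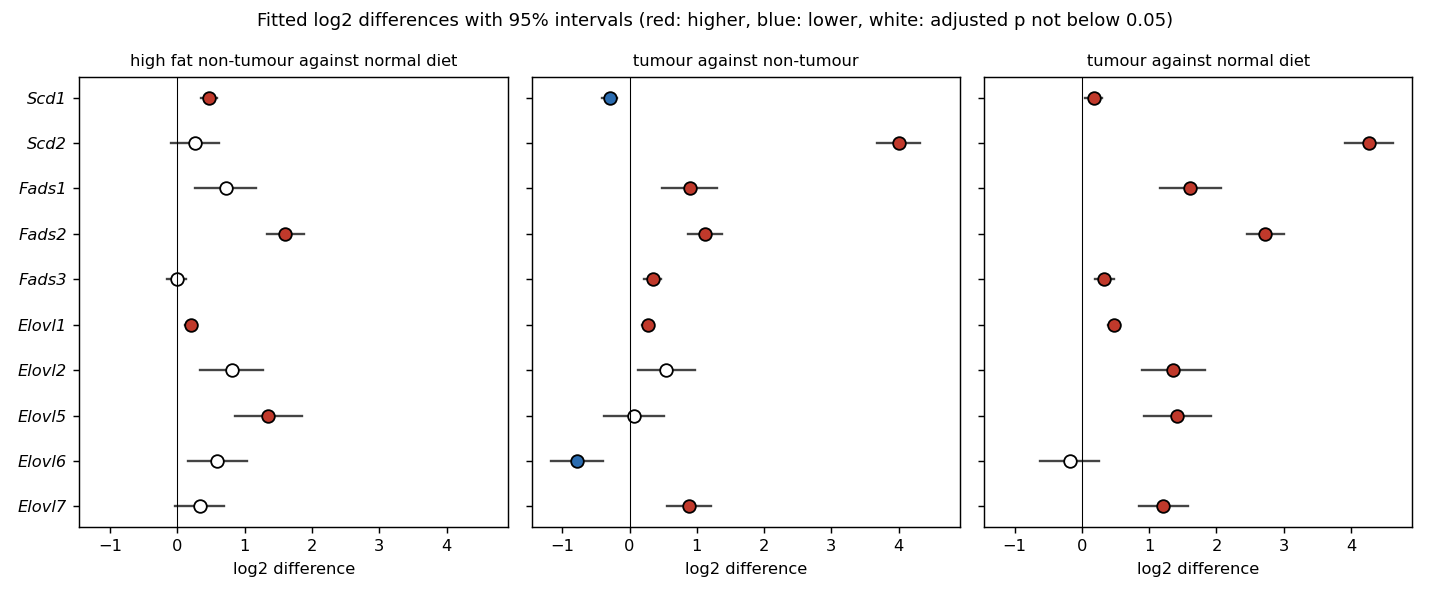
Fitted log2 difference of each gene in the 3 comparisons (dots) with its 95% interval (lines); red dots were called higher, blue dots lower and white dots had an adjusted p not below 0.05. Fads2 is higher in all 3 comparisons, whereas Scd1 and Elovl6 are below 0 between tumour and non-tumour tissue.

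Non-tumour and tumour tissue of the same liver deviated together from their group means (correlation 0.443, 0.148 and 0.167 for mice 117, 186 and 1), so the mouse was also fitted as a block. In that fit 6 of the 10 genes were called between tumour and non-tumour tissue, and the calls lost were those of Elovl6 and Elovl7. The counts moved more with the background correction. With the local background reading of each spot, 2 genes were called between tumour and non-tumour tissue (Scd2 at 3.35, adjusted p = 0.0074, and Fads1 at 1.15, adjusted p = 0.046), 0 between diets by limma (3 at an unadjusted p below 0.05) and 3 between tumours and normal diet liver (Scd2, Fads1 and Fads2). All-gene calls fell to 125, 3 and 217 with it. That reading followed the spot's own signal, with rank correlations of 0.902 to 0.96 per array.

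**Figure D4:**
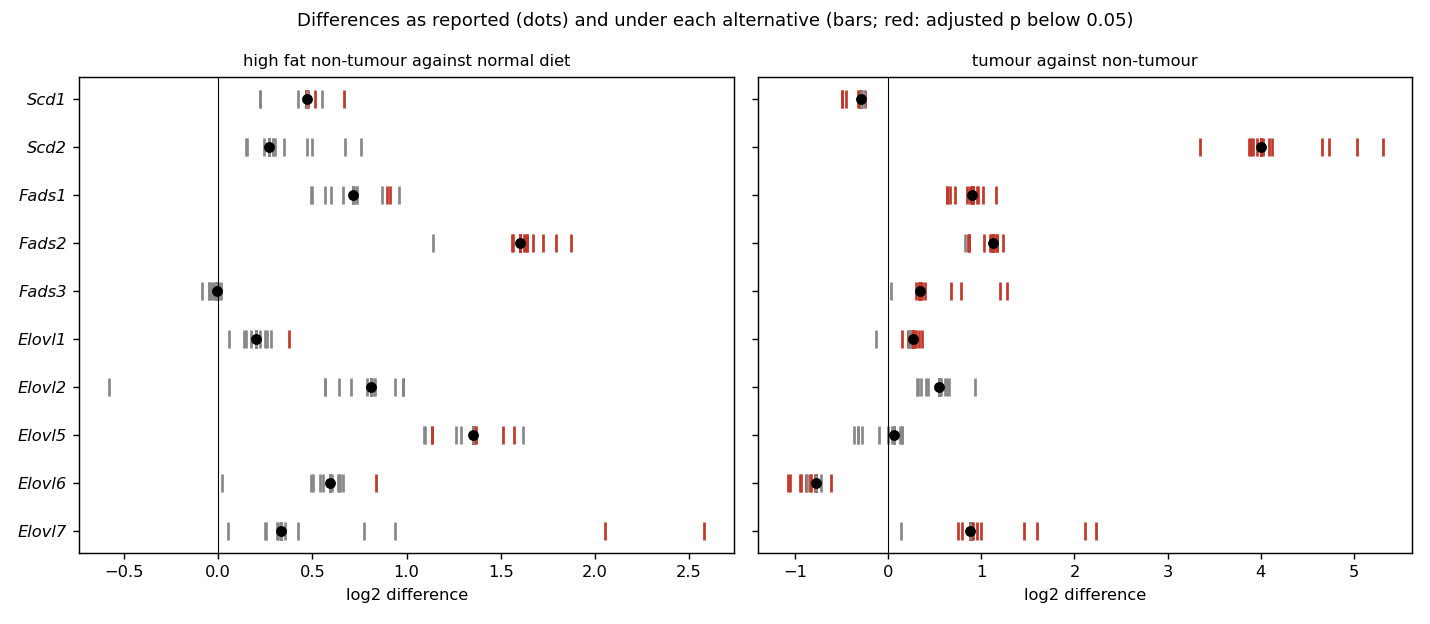
Log2 difference of each gene as reported (dots) and under each alternative setting (bars), for the diet comparison and for tumour against non-tumour tissue; red bars have an adjusted p below 0.05 and grey bars do not. Scd2 in tumours ranges from 3.35 to 5.31 with every bar red, whereas Elovl5 in tumours falls on both sides of 0.

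The genes that work beside these enzymes were read from 8 lists, of which 63 genes were tested. Between tumour and non-tumour tissue 12 rose and 20 fell, with a median difference of -0.07. Of all genes tested 12.0% were called higher and 13.4% lower in this comparison. Among the other desaturases and elongases 4 of 7 could be tested, and 0 rose and 1 fell by limma (1 each at an unadjusted p below 0.05). That gene was Elovl3, an elongase of saturated chains known for a daily rhythm and a male-biased level in mouse liver. It was at 1849.7 and 1088.5 in normal diet liver, 363.7, 418.5 and 1138.2 in non-tumour tissue and 41.1, 56.4 and 15.5 in tumours. It fell by 2.84 ± 0.42 log2 units in tumours against non-tumour tissue (adjusted p = 0.00472) and by 3.89 ± 0.47 against normal diet liver (adjusted p = 0.00219). The diet difference was not called (-1.06 ± 0.47, adjusted p = 0.282), and non-tumour 1 lay within the normal diet range. Elovl4, known from retina and skin, was listed on 0 arrays.

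Of the 8 tested genes on the list of elongation cycle partners 0 rose and 1 fell by limma (2 each at an unadjusted p below 0.05), namely Acacb (-0.30 ± 0.03, adjusted p = 0.00137), an acetyl-CoA carboxylase. The Hsd17b12, Hacd and Tecr genes tested on this list were not called (lowest adjusted p = 0.0543, for Tecr). Of 6 genes of the electron transfer chain that feeds the desaturases, 1 rose and 1 fell. Cyb5r1, 1 of several reductase genes on the list, was higher by 0.65 ± 0.06 (adjusted p = 0.000794). The cytochrome gene Cyb5a was lower (-0.74 ± 0.06, adjusted p = 0.000717). Among the 4 not called was the reductase gene Cyb5r3 (0.58 ± 0.20, adjusted p = 0.0805). Cyb5a went from 10703 ± 186 to 5105 ± 326 (n = 3 each). Of the 7 genes on the palmitate supply list, 3 rose and 3 fell. Acly, which makes cytosolic acetyl-CoA, rose by 0.81 ± 0.11 (adjusted p = 0.00349), and Me1, the malic enzyme that yields NADPH, fell by 1.74 ± 0.14 (adjusted p = 0.000665). Mcat (-0.47 ± 0.10, adjusted p = 0.017) and Oxsm (-0.36 ± 0.04, adjusted p = 0.00161) were the other genes called lower. Both encode enzymes of mitochondrial fatty acid synthesis rather than of cytosolic palmitate synthesis, so the split of this list is not one of palmitate supply alone. Fasn, the fatty acid synthase gene, was not called (0.14 ± 0.14, adjusted p = 0.555). The other genes called higher were Acss2 (0.50 ± 0.14, adjusted p = 0.0419) and the citrate carrier gene Slc25a1 (0.47 ± 0.13, adjusted p = 0.0458). With the mouse as a block both missed the threshold (adjusted p = 0.0762 and 0.0985), and they kept their calls under 5 and 4 of 19 alternatives. Leaving out any array but non-tumour 186 ended both calls, with adjusted p from 0.0524 to 0.122 for Acss2 and from 0.0586 to 0.129 for Slc25a1.

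Among 7 tested acyl-CoA synthetases 3 rose and 2 fell in tumours. Acsl5 rose by 1.33 ± 0.19 (adjusted p = 0.00441), and Slc27a5, the bile acid and very long chain synthetase of hepatocytes, fell by 1.20 ± 0.16 (adjusted p = 0.00339). Among 12 regulators 3 rose and 4 fell. Thrsp, a lipogenic gene induced by thyroid hormone, had the largest difference of the list (-1.94 ± 0.55, adjusted p = 0.0453). It lost its call under 10 of 19 alternatives, among them the mouse block (adjusted p = 0.0568) and each array left out other than tumour 186 and tumour 1 (adjusted p from 0.0535 to 0.127), and was -1.27 without tumour 1, where the call was kept. Insig1 and Scap, which hold or escort SREBP, rose by 1.16 ± 0.12 (adjusted p = 0.00149) and 0.77 ± 0.11 (adjusted p = 0.00421), and Pparg, a nuclear receptor of fat storage, fell by 0.89 ± 0.10 (adjusted p = 0.00151). Srebf1, which encodes the SREBP that drives fatty acid synthesis, was at 724 ± 233 in non-tumour and 346 ± 60.6 in tumour tissue. Its difference of -0.76 ± 0.29 was not called (adjusted p = 0.109), but was called with the deposited values (-1.03, adjusted p = 0.0271).

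Of 12 acyltransferases that place fatty acids into phospholipid, 1 rose and 2 fell, and Agpat2 had the largest difference (-1.01 ± 0.11, adjusted p = 0.0018). Of 7 genes for peroxisomal chain shortening, 1 rose and 6 fell, and their median was -1.15. Acaa1b (-1.65 ± 0.28, adjusted p = 0.00738), Ehhadh (-1.51 ± 0.17, adjusted p = 0.00186) and Hsd17b4 (-1.20 ± 0.21, adjusted p = 0.00788), enzymes of the peroxisomal cycle, were among those that fell. Abcd2, a peroxisomal transporter of very long chain acyl-CoA, rose by 1.73 ± 0.18 (adjusted p = 0.00144).

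Between diets 2 of the 63 genes rose and 2 fell, where 1.81% of all genes were called higher and 2.04% lower. Pparg (0.90 ± 0.11, adjusted p = 0.0124) and Abcd2 (1.13 ± 0.20, adjusted p = 0.0383) were higher in non-tumour high fat liver. Acss2, which activates acetate (-1.14 ± 0.15, adjusted p = 0.0173), and Acsl6 (-0.24 ± 0.03, adjusted p = 0.0124), an acyl-CoA synthetase named after its values were seen, were lower. Each of these calls was lost without normal diet 117 (adjusted p from 0.0628 for Acss2 to 0.108 for Abcd2) and without normal diet 120 (from 0.0518 for Pparg to 0.206 for Abcd2). Acss2 also lost its call without non-tumour 117 (adjusted p = 0.0538) or non-tumour 1 (adjusted p = 0.0514), and Abcd2 without any other array but tumour 186 or tumour 1 (adjusted p from 0.0661 without tumour 117 to 0.106 without non-tumour 186).

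**Figure D5:**
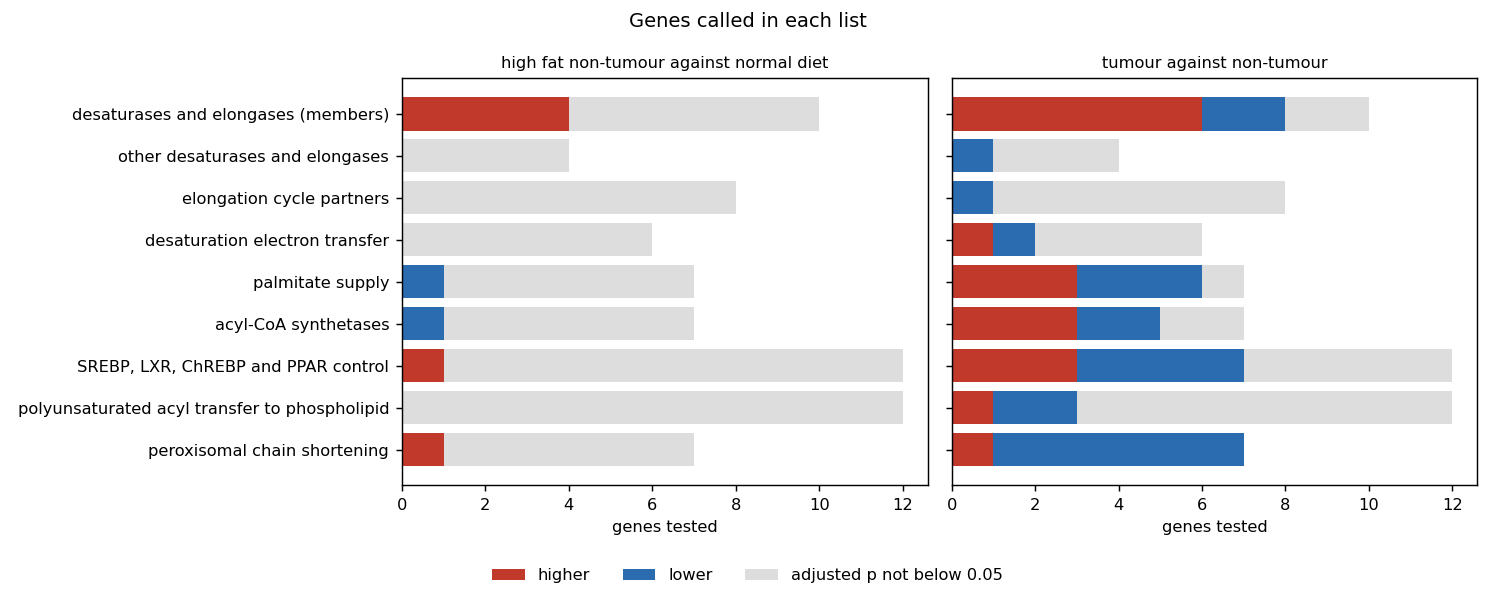
Number of tested genes per list that were called higher (red), called lower (blue) or had an adjusted p not below 0.05 (grey), for the diet comparison and for tumour against non-tumour tissue. Between tumour and non-tumour tissue 6 of the 10 desaturase and elongase genes are red, and 6 of the 7 genes for peroxisomal chain shortening are blue.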

How the data were processed

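Per the labels, amplified RNA of 8 samples was coupled to Cy5 and hybridized to 1 array each. The deposited normalized intensities are, as recomputed from the scanner files (r2 = 1), each spot median less the blank level (mean of 2736 blank spots), scaled so that the median listed probe is 25; 81.8% to 88.5% of 23473 probes were listed per array. Of these probes 20690 had 1 gene symbol, 0 several and 2783 none. The scanner software is not given in the sources used here.

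For the tests, the deposited scanner intensities were corrected by normexp (blank spots as negative controls, offset 50), quantile normalized and taken to log2. Genes with a listed value throughout at least 1 group were fitted with limma 3.58.1 in R 4.3.3 on all 8 arrays, 2-sided, with Benjamini-Hochberg adjustment over 16799 genes. As alternatives, log2 of the deposited values plus a pseudocount of 1 or 10, and others given in the closing section, were fitted.

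The 10 genes and the lists were chosen with earlier results of these data known. Named beside the 10 genes were up to 4 called genes per pathway list by size of the tumour difference, Scd3, Scd4, Elovl3, Elovl4 and Srebf1, and the 3 genes nearest to Scd2, Scd1 and Elovl6. Per the labels, tissues with the same mouse number come from the same high fat liver; this pairing was checked by the correlation of deviations from group means (0.443, 0.148 and 0.167 for the same mouse, -0.275 to 0.028 for different mice). The fits were tested on simulated data.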

Additional observations from a re-analysis of the deposited data

How the results depend on the processing

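Of 550 values of the 10 genes under alternative settings, 473 kept direction and side of the threshold, 56 lost and 10 gained the call and 11 reversed. Scd2 and Fads1 in tumours against non-tumour tissue kept their calls under all 19 alternatives (Scd2 3.35 to 5.31). The alternatives overlap and are not separate checks. For tumour against non-tumour tissue, the compared groups alone and leaving out either normal diet array gave the same fit. The mean of all probes changed the estimate of Elovl1 only, the member with a second probe, and other filters changed no estimate. Genes called between tumour and non-tumour tissue numbered 2 with the local background (8 as reported) and 7 to 8 with arrays left out; all genes called numbered 125 and 3116 to 4193 (4267 as reported), and the mouse block gave 6 and 3485. Between diets (4 as reported) they were 0 with the local background, 7 with same-median scaling, 2 with the deposited values and a pseudocount of 10, and 1 to 5 with arrays left out; for all genes (646 as reported) these were 3, 1404, 1104 and 100 to 784. The lowest counts between diets, 1 of the 10 genes and 100 of all, came without normal diet 120; normal diet 117 gave 2 and 129, non-tumour 117 gave 2 and 256, non-tumour 186 gave 2 and 257, and non-tumour 1 gave 4 and 373. Between tumours and normal diet they were 3 with the local background and 7 to 9 with arrays left out (9 as reported), and 217 and 2316 to 4437 for all genes (4675 as reported), with 2316 without normal diet 117 and 2479 without normal diet 120. At an unadjusted p below 0.05, limma with the local background gave 5, 3 and 5 of the 10 genes in the tumour against non-tumour, diet, and tumour against normal diet comparisons.

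All-gene calls between diets split into 304 higher and 342 lower as reported, 1084 and 320 with same-median scaling, 332 and 164 with blank-subtracted signal, 312 and 792 with the deposited values and a pseudocount of 10; between tumours and normal diet they split into 2162 and 2513 as reported, 1676 and 3579 with a pseudocount of 1, and 1595 and 3797 with a pseudocount of 10. With the deposited values and a pseudocount of 1 the median of all genes was -0.06, -0.12 and -0.18 in the tumour against non-tumour, diet, and tumour against normal diet comparisons.

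Reversed between tumour and non-tumour tissue were, with the local background, Elovl1 (-0.13), Elovl5 (-0.36), Scd4 (0.14), Acly (-0.075) and Agpat2 (0.0063), and Elovl5 with same-median scaling (-0.28), the deposited values (-0.32 with either pseudocount), without tumour 186 (-0.002117) and without non-tumour 1 (-0.094); with arrays left out it ran from -0.094 to 0.155. Between diets Elovl2 reversed with the local background (-0.58) and Fads3 without normal diet 117 (0.0145; -0.0297 to 0.0145 with arrays left out). Between tumours and normal diet Scd1 reversed with the deposited values (-0.28 with either pseudocount). The cause was not tested. Leaving out 1 normal diet array leaves that group with 1 array, assumed to vary like the others.

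The slide or scan as a block was not run, since no slide or scan label was found. The scanner readings nonetheless split with diet. The full-scale value of the second gain was 29105 and 29171 on the normal diet arrays and 30416 to 30481 on the high fat arrays. The blank mean was 18.4 and 18.5 against 20.5 to 22.7, and the median signal 32.9 and 30.9 against 40.1 to 45.1. Their part in the differences from normal diet liver was not tested. With 2 or 3 arrays a group, the p-values measure only the spread between these samples, and genes near the blank level, such as Elovl7 in normal diet liver, are limited by signal over background.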
